A study of Mus musculus with 224 samples.

Results

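The 9 genes Grm2, Grm3, Grm4, Grm5, Grm7, Grm8, Homer1, Homer2 and Homer3 encode metabotropic glutamate receptors and the Homer scaffolds that hold some of these receptors at the synapse. Their members were all probesets of the array that the platform annotation gives to 1 of these symbols alone (the genes were picked with earlier results of these data known). This gave 19 probesets of the 45037 in the table and 9 of the 18193 genes with a probeset of their own. Homer1 had 6 probesets, Homer2 and Grm7 had 3 each, Grm5 had 2, and the other 5 genes had 1 each. A further probeset shared by Grm2 and a predicted gene was left out.

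RNA was measured on Affymetrix mouse expression arrays in male C57BL/6J mice bought at 10 weeks of age. The regions were the central nucleus of the amygdala (CeA), the bed nucleus of stria terminalis (BNST), the hippocampus (HPC), the nucleus accumbens (NAC) and the prefrontal cortex (PFC). CIE Drinking mice received chronic intermittent ethanol (CIE) vapor and drank ethanol between the vapor cycles, Air Drinking mice drank ethanol and received air, CIE NonDrinking mice received vapor and only water, and Air NonDrinking mice received air and only water and were ethanol naive. Vapor was given for 16 hours a day on 4 days in each of 4 cycles, each followed by 72 hours of abstinence, and drinkers had 15% (v/v) ethanol beside water for 2 hours a day, after 6 weeks of baseline drinking. The authors state that at sacrifice drinkers had been without ethanol for under a day and nondrinkers for over a week. Where drinkers are set against nondrinkers, drinking and time since ethanol cannot be told apart. All mice received pyrazole, an inhibitor of alcohol dehydrogenase, at the same times, with 1.6 g/kg ethanol in the CIE groups and saline in the Air groups. Each group had 8 to 12 arrays in a region, 224 in all, with 1 array per region of a mouse. The values are on the log2 scale, where a difference of 1 is a doubling. They were normalized within each region, so levels are compared between regions only as percentiles.

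Metabotropic glutamate receptors are G protein-coupled receptors that slow or tune transmission at glutamate synapses. The group I receptor mGlu5 (Grm5) lies mostly on the postsynaptic side and acts through Gq and phospholipase C. The group II receptors mGlu2 (Grm2) and mGlu3 (Grm3) and the group III receptors mGlu4, mGlu7 and mGlu8 (Grm4, Grm7, Grm8) couple to Gi/o and lower cyclic AMP, in large part as presynaptic brakes on release, with Grm3 also strong in astrocytes. Homer proteins bind group I receptors through an EVH1 domain. Long forms carry a coiled coil and cross-link receptors to Shank and to calcium channels of internal stores, whereas the short form of Homer1, Homer1a, lacks the coiled coil, is induced by neuronal activity and uncouples these complexes. The sources used here do not say which Homer1 probesets read the short and which the long transcripts, so the 6 probesets are described apart, by their identifiers.

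Because Homer1 had the largest log2 fold change of the 19 probesets that was called, the bases upstream of its start are shown. RefSeq's promoter table for build GRCm38.p6 holds 12 promoters of 7 of the 9 genes. The 250 bases before the upstream Homer1 start, chr13:93303507-93303756 on the plus strand, are printed with the motif TGACG, the core of the cyclic AMP response element, in capitals.
Homer1: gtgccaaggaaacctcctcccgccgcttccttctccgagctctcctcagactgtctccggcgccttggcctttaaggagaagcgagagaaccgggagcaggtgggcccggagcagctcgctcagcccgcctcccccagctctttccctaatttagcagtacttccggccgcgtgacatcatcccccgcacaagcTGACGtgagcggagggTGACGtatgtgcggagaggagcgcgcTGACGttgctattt
The motif was searched on both strands of the 300 bases from 250 before to 50 after each start. It begins 56, 40 and 14 bases before the Homer1 start, and 3 or more copies are held by 1.03% of the 32851 promoters of that length, against 20.8% with at least 1 copy. The palindrome TGACGTCA, which holds TGACG on both strands (in 1.79% of promoters), the AP-1 motif TGANTCA (7.81%) and the EGR motif GCGNGGGCG (5.55%) were not in this window. The other Homer1 promoter, chr13:93307784-93308083, held none of these motifs. Of the other members' promoters, 1 of Grm8 held TGACG, 1 of Grm8 held TGANTCA, and those of Grm3 and Homer3 and 1 of Homer2 held GCGNGGGCG. A match describes letters and not a used site.

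**Figure D1:**
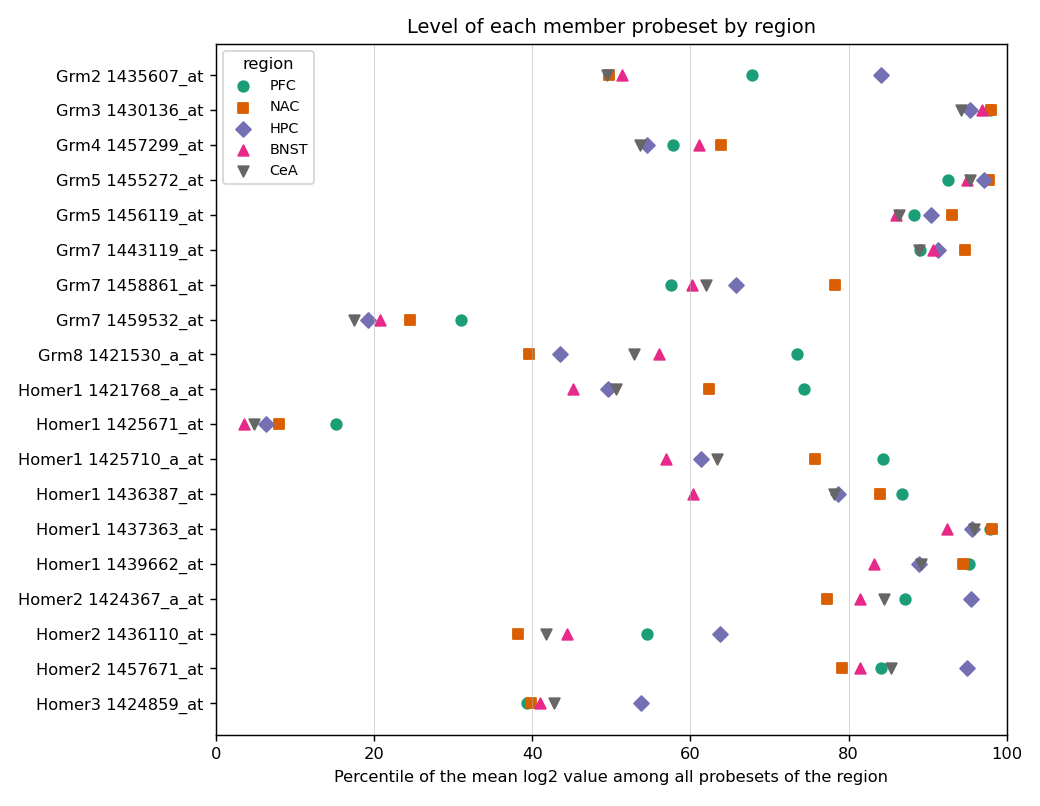
Percentile of the mean log2 value of each of the 19 probesets (rows) among all probesets of a region, with 1 symbol per region. Grm3, Grm5 1455272_at and Homer1 1437363_at lie above the 92nd percentile in every region, and Homer1 1425671_at lies at the 15.2 percentile or below.

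The members differed widely in level. Grm3 lay at the 94.2 to 98.0 percentile of its region and Grm5 1455272_at at the 92.6 to 97.8 percentile, the first highest in NAC and lowest in CeA, the other highest in NAC and lowest in PFC. Grm2 had its highest place in HPC (84.1 percentile), followed by PFC (67.8), and lay near the middle in BNST (51.4), NAC (49.7) and CeA (49.5). Grm8 was placed highest in PFC (73.5) and lowest in NAC (39.6). Homer2 1424367_a_at and 1457671_at were placed highest in HPC, at 95.5 and 94.9, and Homer3 stayed between 39.3 (PFC) and 53.8 (HPC). No test was made of these orders, since each region has its own scale. Homer1 1425671_at, at 3.56 to 15.2, and Grm7 1459532_at, at 17.5 to 31.0, are dim, and these files hold no detection call.

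The tissue labels were set against marker genes. Striatal markers were at a mean percentile of 95.7 in NAC and hippocampal neuron markers at 88.5 in HPC. CeA arrays also carried choroid plexus markers, at a mean percentile of 97.2, above the 79.1 of central and extended amygdala markers. In such dissected tissue, fewer cells of a type and less RNA per cell cannot be told apart.

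Limma was fitted in each region with a mean per group, and a probeset was called at an adjusted p (Benjamini-Hochberg, over all probesets of the region) of 0.01 or less. Comparison 1 was CIE Drinking against Air Drinking, Comparison 2 CIE NonDrinking against Air NonDrinking, Comparison 3 CIE Drinking against CIE NonDrinking, Comparison 4 CIE Drinking against Air NonDrinking, Comparison 5 CIE NonDrinking against Air Drinking, and Comparison 6 Air Drinking against Air NonDrinking. Log2 fold changes (± SE) are the first group minus the second. Comparisons with a group in common share its arrays, so their values stand side by side and are not independent.

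**Figure D2:**
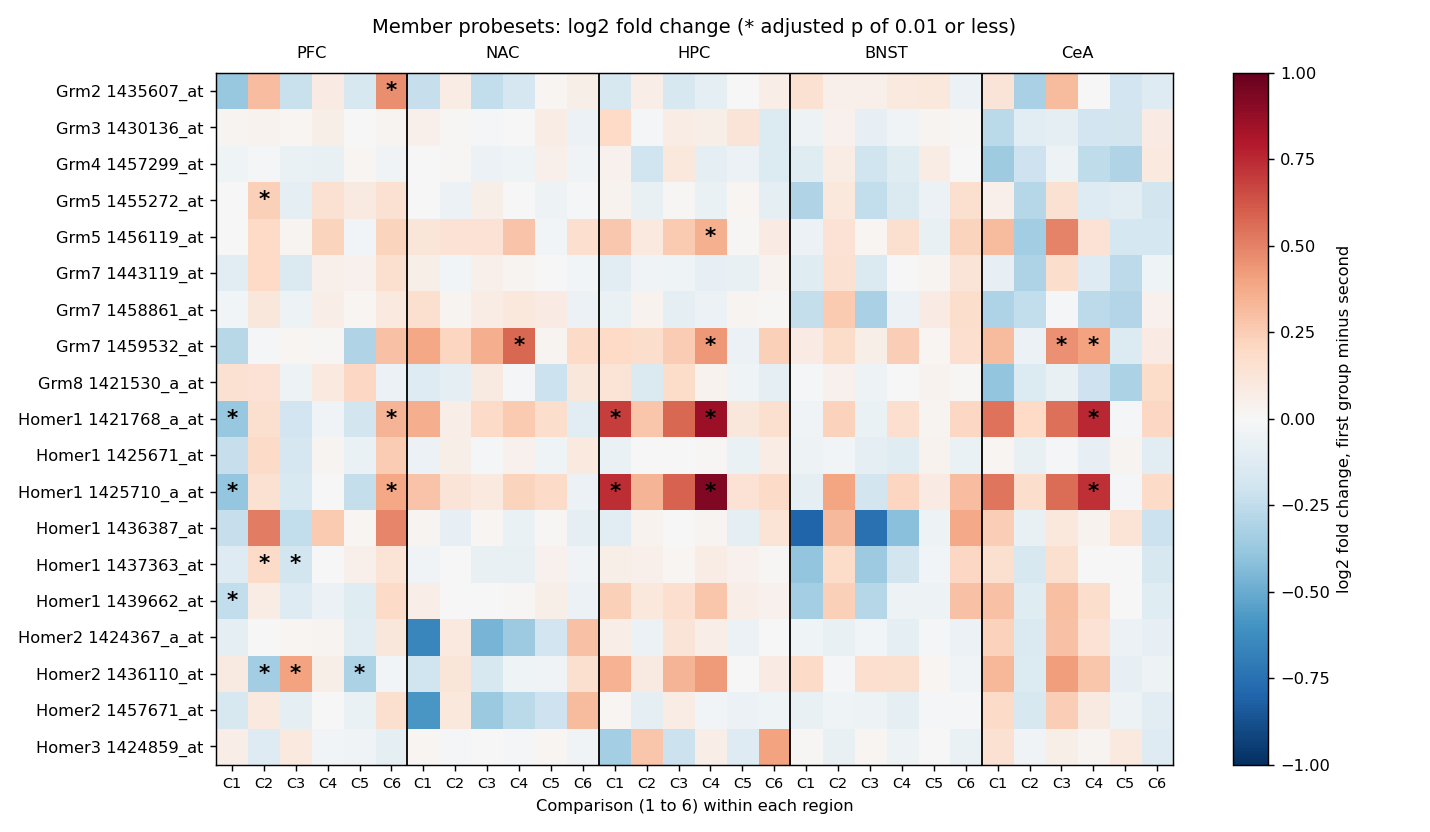
Log2 fold change of the 19 member probesets (rows) in Comparisons 1 to 6 of each region (columns, C1 to C6), red where higher and blue where lower in the group named first, with a star at an adjusted p of 0.01 or less. Stars fall in PFC, NAC, HPC and CeA, none in BNST, and the deepest reds are Homer1 1421768_a_at and 1425710_a_at in HPC and CeA.

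Counts of member probesets called were set against those of all probesets. In PFC, 3 of 19 were called in Comparison 1 (all lower), against 1.87% of all probesets, 3 in Comparison 2 (2 higher, 1 lower), against 1.26%, and 2 in Comparison 3 (1 higher, 1 lower), against 1.87%. In Comparison 4 none was called in PFC, against 0.722% of all probesets. There 2 of 19 members had an unadjusted p under 0.05, beside 12544 of all 45037 probesets. Comparison 5 gave 1 (lower), against 1.69%, and Comparison 6 gave 3 (all higher), against 1.40%. In NAC, Comparison 4 gave 1 (higher), against 2.71% of all probesets, and the others none, against 0.282% in Comparison 1, 0% in Comparisons 2 and 6, 0.0200% in Comparison 3 and 0.00222% in Comparison 5. In HPC, Comparison 1 gave 2 (both higher), against 1.23%, and Comparison 4 gave 4 (all higher), against 3.63%. Comparison 3 gave none in HPC, against 0.0832%, and Comparisons 2, 5 and 6 called no probeset of any gene there, 0%. In CeA, Comparison 3 gave 1 (higher), against 1.64%, and Comparison 4 gave 3 (all higher), against 1.86%, while Comparison 1 gave none, against 0.177%, and Comparisons 2, 5 and 6 called nothing, 0%. In BNST no member was called, against 0.943% of all probesets in Comparison 1, 0.401% in Comparison 3, 1.22% in Comparison 4 and 0% elsewhere. Comparisons without a member call were also counted at an unadjusted p under 0.05, with all probesets in brackets. In NAC, 6 of 19 members passed this bound in Comparison 1 (7663 of 45027 probesets) and 2 each in Comparisons 3 and 6 (9178 and 2556). In HPC, 5 did in Comparison 3 (6857 of 44463) and 2 in Comparison 6 (3245). In CeA, 10, 4 and 2 did in Comparisons 1, 2 and 5 (6779, 4019 and 3471 of 43969). In BNST, 5, 5 and 3 did in Comparisons 1, 3 and 4 (10364, 8602 and 6273 of 44429). Outside PFC, the remaining comparisons that called no member had 0, beside 1399 to 4595 of all probesets.

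Grm5, the group I receptor, was called in PFC and HPC through different probesets. In PFC, Grm5 1455272_at ran from 10.47 to 10.88 (median 10.74) in CIE NonDrinking mice and 10.27 to 10.67 (median 10.47) in Air NonDrinking mice. All 12 vapor-exposed mice lay above the Air NonDrinking mean, though the ranges overlapped, and the probeset rose by 0.24 ± 0.06 (adjusted p = 0.00728). Leaving out any 1 of 14 single arrays lost this call, with the highest adjusted p, 0.0192, without CIE NonDrinking mouse 43, and so did a fit of only the 2 groups (0.0197) and array weights (0.0464). Between drinkers the same probeset gave -0.00087 ± 0.06 (adjusted p = 0.996). The other Grm5 probeset, 1456119_at, was also higher in PFC of CIE NonDrinking mice (mean 9.95) than of Air NonDrinking mice (mean 9.75). It was not called there. In HPC, Grm5 1456119_at ran from 10.63 to 11.08 (median 10.86) in CIE Drinking mice and 10.34 to 10.68 (median 10.52) in Air NonDrinking mice. It rose by 0.36 ± 0.08 in Comparison 4 (adjusted p = 0.00155), a 1.28-fold change, with all 12 CIE Drinking mice above the other group's mean. In NAC the same Comparison gave 0.28 ± 0.08 for this probeset (adjusted p = 0.0228), which did not pass. The 2 Grm5 probesets did not move alike in HPC, where 1455272_at had means of 11.96 in CIE Drinking and 12.02 in Air NonDrinking mice. The difference between the 2 Grm5 probesets in their response was not tested.

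Of the group II receptors, Grm2 was called in PFC in Comparison 6, and Grm3, the astrocyte-rich one, passed in no comparison of any region. Grm2, a presynaptic autoreceptor, ran from 7.53 to 8.67 (median 7.98) in PFC of Air Drinking mice and 7.27 to 7.75 (median 7.53) in Air NonDrinking mice. It rose 1.38-fold, by 0.46 ± 0.11 (adjusted p = 0.00773), with 10 of 11 drinkers above the naive mean. In vapor-exposed drinkers Grm2 ran from 7.20 to 7.90 (median 7.69), and Comparison 1 gave -0.38 ± 0.11 (adjusted p = 0.0257), short of the threshold. CIE NonDrinking mice ran from 7.42 to 8.54 (median 7.85). Their mean, 7.85, was also above the 7.55 of Air NonDrinking mice, but Grm2 was not called in Comparison 2. Without any 1 of 12 single arrays the Comparison 6 call was lost, with the highest adjusted p, 0.0174, without Air Drinking mouse 30, and it was lost with repeated quantile normalization (0.0147), array weights (0.0294) and only the 2 groups in the fit (0.0193). Grm3 in PFC stayed between 11.84 and 12.22 in all 47 arrays.

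Grm7, the group III receptor of release sites, was called through its dim probeset 1459532_at in 3 regions. In NAC this probeset ran from 4.71 to 6.01 (median 5.71) in CIE Drinking mice and 4.85 to 5.35 (median 5.07) in Air NonDrinking mice. It rose by 0.57 ± 0.13 (adjusted p = 0.00463), with 10 of 11 mice above the naive mean, and the lowest value of both groups belonged to a CIE Drinking mouse. Without CIE Drinking mouse 4, 6, 10 or 21 the NAC call was lost (adjusted p up to 0.0113). In HPC it ran from 4.58 to 5.29 in CIE Drinking mice and 4.27 to 4.65 in Air NonDrinking mice, and rose by 0.43 ± 0.10 (adjusted p = 0.00560). In CeA it ran from 4.61 to 5.07 in CIE Drinking mice, 4.09 to 4.67 in CIE NonDrinking mice and 4.18 to 4.59 in Air NonDrinking mice. In CeA the lowest CIE Drinking value, 4.61, lay just above the highest Air NonDrinking value, 4.59. How often other probesets lack overlap was not counted, and Comparison 4 called 1.86% of all probesets. The rises were 0.46 ± 0.08 in Comparison 3 (adjusted p = 0.000396) and 0.40 ± 0.09 in Comparison 4 (adjusted p = 0.00290), the second of which was lost without Air NonDrinking mouse 48 or 55 (adjusted p up to 0.0145). The astrocyte transporter gene Slc1a2 rose through 1439940_at, 1 of 27 astrocyte probesets called, in the same CeA comparisons. Its rises were 0.73 ± 0.17 in Comparison 3 (adjusted p = 0.00661) and 0.85 ± 0.18 in Comparison 4 (adjusted p = 0.00312). In NAC Comparison 4 the inhibitory neuron marker Gad2 rose through 1421978_at by 1.02 ± 0.18 (adjusted p = 0.000198), the only probeset of its list called. The inhibitory list averaged 10.91 in CIE Drinking and 10.98 in Air NonDrinking NAC. Also called in NAC Comparison 4 were the astrocyte gene Slc1a3 through 1443749_x_at (0.20 ± 0.05, adjusted p = 0.00447) and the microglial Cx3cr1 (0.23 ± 0.06, adjusted p = 0.00489). The part of these markers in the Grm7 values was not tested. The brighter Grm7 probesets 1443119_at and 1458861_at were called in none of the 6 comparisons of any region, and in CeA Comparison 4 1443119_at had means of 10.18 in CIE Drinking and 10.31 in Air NonDrinking mice. Choroid plexus markers in CeA averaged 12.09 in CIE Drinking, 12.76 in CIE NonDrinking and 12.08 in Air NonDrinking mice, with 0 of 10 of their probesets called in Comparisons 3 and 4, and their part in the Grm7 values was not tested. Grm4 and Grm8 passed in no comparison.

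**Figure D3:**
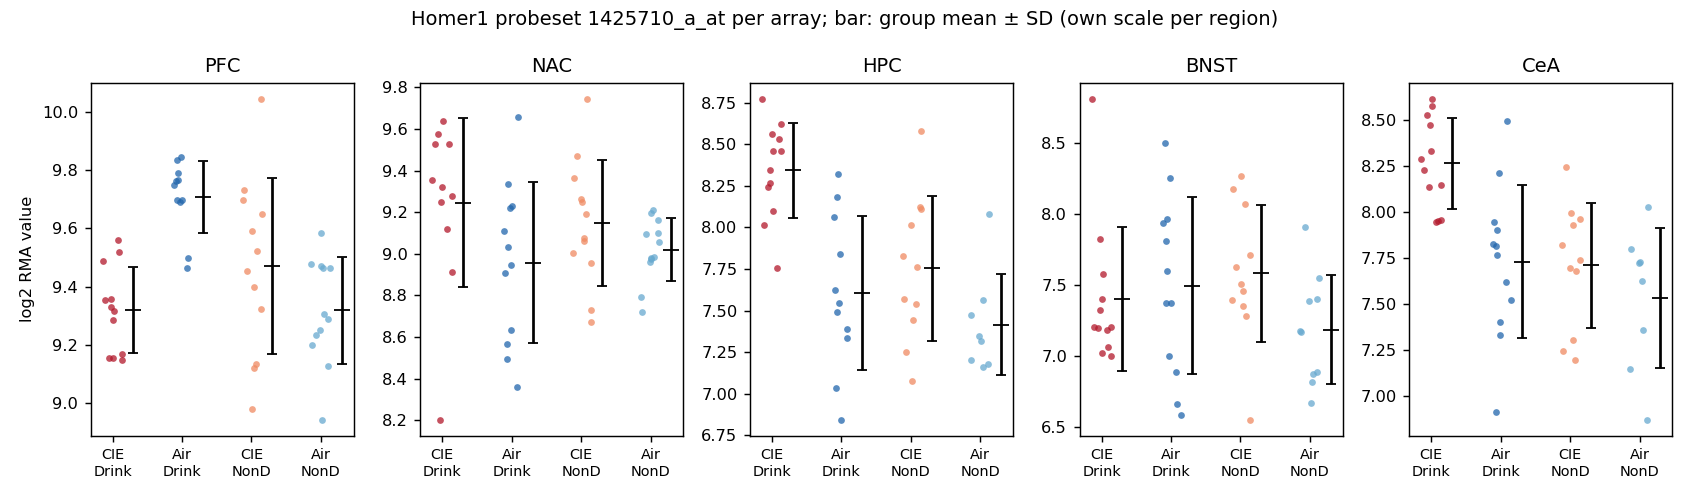
Log2 value of Homer1 1425710_a_at on every array (points) by group in each region, with the group mean and SD as a bar, and an axis of its own per region. CIE Drinking mice lie below Air Drinking mice in PFC (means 9.32 and 9.71) and above them in HPC (8.34 and 7.61) and CeA (8.26 and 7.73).

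In CIE Drinking against Air Drinking mice, 3 of 6 Homer1 probesets were called in PFC, all lower, and 2 in HPC, both higher. In PFC, 1425671_at, 1436387_at and 1437363_at were lower too, at -0.23, -0.23 and -0.13, and were not called. In HPC, 1439662_at and 1437363_at also had higher means, 1425671_at and 1436387_at lower ones, none of them called. In PFC, 1425710_a_at ran from 9.15 to 9.56 (median 9.32) in CIE Drinking mice and 9.46 to 9.84 (median 9.75) in Air Drinking mice. It fell by 0.39 ± 0.08 on the log2 scale, to 0.764 of the Air Drinking level (adjusted p = 0.00249), with all 12 mice below the Air Drinking mean. In the same Comparison 1421768_a_at ran from 8.07 to 8.47 (median 8.20) in CIE Drinking mice and 8.29 to 8.93 (median 8.59) in Air Drinking mice, and fell by 0.38 ± 0.08 (adjusted p = 0.00290). The bright 1439662_at ran from 10.91 to 11.24 in CIE Drinking mice and 11.13 to 11.40 in Air Drinking mice, and fell by 0.25 ± 0.05 (adjusted p = 0.000950). Each of these pairs overlapped at its edge. Air Drinking mice stood above Air NonDrinking mice by 0.39 ± 0.08 for 1425710_a_at (adjusted p = 0.00346, means 9.71 and 9.32) and by 0.34 ± 0.08 for 1421768_a_at (adjusted p = 0.00827, up to 0.0218 without 1 array and 0.0147 with repeated quantile normalization). CIE Drinking and Air NonDrinking mice had nearly the same mean of 1425710_a_at in PFC, 9.32 in both.

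Cell type markers moved in the same PFC comparisons. In Comparison 1 the astrocyte filament gene Gfap rose through 3 probesets, by 0.53 ± 0.11, 0.65 ± 0.15 and 0.89 ± 0.17 (adjusted p = 0.00209, 0.00614 and 0.00125), and the glutamate transporter gene Slc1a2 fell through 1459014_at (-0.81 ± 0.11, adjusted p = 7.75e-06), together 4 of 27 astrocyte probesets. Olig2, of the oligodendrocyte lineage, rose by 0.35 ± 0.08 (adjusted p = 0.00423), Prox1, of hippocampal granule cells, by 0.38 ± 0.07 (adjusted p = 0.000513), and the neuronal gene Nrgn fell (-0.16 ± 0.03, adjusted p = 0.00189), 1 of 6 excitatory neuron probesets. The astrocyte list ran from 10.72 to 10.91 (mean 10.82) in CIE Drinking mice and 10.54 to 10.79 (mean 10.66) in Air Drinking mice. The oligodendrocyte list, with 0 of 22 probesets called, ran from 11.56 to 12.03 (mean 11.80) in CIE Drinking mice and 11.17 to 11.84 (mean 11.54) in Air Drinking mice. In Comparison 6, 3 of 6 excitatory neuron probesets rose, Slc17a6, a vesicular glutamate transporter, by 0.48 ± 0.11 and 0.54 ± 0.12 (adjusted p = 0.00640 and 0.00437) and Nrgn by 0.15 ± 0.03 (adjusted p = 0.00572). That list ran from 9.57 to 9.99 (mean 9.82) in Air Drinking mice and 9.31 to 9.73 (mean 9.60) in Air NonDrinking mice, and Slc1a2 1459014_at rose by 0.55 ± 0.11 (adjusted p = 0.00158). The part of these markers in the Homer1 and Grm2 values was not tested.

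In HPC the same pair of probesets rose. Homer1 1425710_a_at ran from 7.75 to 8.78 (median 8.40) in CIE Drinking mice, 6.84 to 8.32 (median 7.54) in Air Drinking mice and 7.16 to 8.08 (median 7.33) in Air NonDrinking mice. It rose 1.67-fold in Comparison 1, by 0.74 ± 0.15 (adjusted p = 0.00362, but 0.0234 with only the 2 groups in the fit), and 1.90-fold in Comparison 4, by 0.93 ± 0.17 (adjusted p = 0.000293). Homer1 1421768_a_at ran from 7.00 to 7.80 (median 7.29) in CIE Drinking mice, 6.06 to 7.33 (median 6.66) in Air Drinking mice and 6.29 to 6.96 (median 6.44) in Air NonDrinking mice. Its rises were 0.69 ± 0.13 (adjusted p = 0.00206, but 0.0219 with only the 2 groups) and 0.85 ± 0.14 (adjusted p = 0.000135). Its lowest CIE Drinking value, 7.00, lay just above the highest Air NonDrinking value, 6.96. How often other probesets lack overlap was not counted, and Comparison 4 called 3.63% of all probesets. CIE NonDrinking mice lay between, with medians of 6.71 for 1421768_a_at and 7.76 for 1425710_a_at. With the probesets of a gene averaged, Homer1 was called in HPC in neither Comparison 1 nor Comparison 4. Without Air Drinking mouse 59, 60 or 62 the Comparison 1 call of 1425710_a_at was lost, with an adjusted p of up to 0.0125.

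In HPC, too, single markers rose in these comparisons. The interneuron gene Gad2 (1 of 11 inhibitory neuron probesets) rose by 0.79 ± 0.16 in Comparison 1 and 1.05 ± 0.18 in Comparison 4 (adjusted p = 0.00357 and 0.000167), and Slc1a2 1439940_at (1 of 27 astrocyte probesets) by 0.68 ± 0.15 and 0.82 ± 0.16 (adjusted p = 0.00545 and 0.000789). Pde10a (2 of 15 striatal probesets) rose by 0.33 to 0.42 over both comparisons, Mbp, a myelin gene (1 of 22 oligodendrocyte probesets), by 0.48 and 0.49, and the microglial receptor gene Cx3cr1 (1 of 9 microglia probesets) by 0.31 and 0.34, with adjusted p of 0.00746 or less. No excitatory neuron probeset of 6 was called, and that list ran from 9.55 to 10.50 (mean 10.07) in CIE Drinking, 9.44 to 10.35 (mean 9.95) in Air Drinking and 9.51 to 10.45 (mean 9.96) in Air NonDrinking mice. The inhibitory list ran from 10.26 to 10.99 in CIE Drinking, 10.37 to 10.86 in Air Drinking and 10.40 to 11.02 in Air NonDrinking mice. The part of these markers in the Homer1 values was not tested.

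In CeA, 1425710_a_at ran from 7.94 to 8.61 (median 8.26) in CIE Drinking mice and 6.87 to 8.02 (median 7.67) in Air NonDrinking mice. It rose 1.66-fold, by 0.73 ± 0.15 (adjusted p = 0.00236), and 1421768_a_at by 0.75 ± 0.17 (adjusted p = 0.00559). Air Drinking mice had medians of 7.79 and 6.78, so that Comparison 1 gave 0.54 ± 0.14 (adjusted p = 0.0405) and 0.54 ± 0.15 (adjusted p = 0.0674), past no threshold. The excitatory neuron markers ran from 7.34 to 9.39 (mean 8.69) in CIE Drinking CeA and from 7.84 to 9.36 (mean 8.61) in Air NonDrinking CeA. In the same order, central and extended amygdala markers averaged 9.077 and 9.365 (SD 0.56 and 0.62) and striatal markers 9.037 and 9.314 (SD 0.66 and 0.65). Oligodendrocyte markers averaged 11.51 and 11.83 (SD 0.56 and 0.53), and hippocampal neuron markers went the other way, at 8.649 and 8.539 (SD 0.40 and 0.44). Choroid plexus markers ran from 9.39 to 13.54 (mean 12.09) in CIE Drinking and from 9.78 to 13.30 (mean 12.08) in Air NonDrinking mice, and Slc1a2 1439940_at rose by 0.85 ± 0.18 (adjusted p = 0.00312). The part of these markers in the Homer1 values was not tested. Without Air NonDrinking mouse 48 or 55 the call of 1425710_a_at was lost, and without any 1 of 7 mice that of 1421768_a_at, with an adjusted p of up to 0.0298 (0.0122 with array weights). In NAC the values of 1425710_a_at had medians of 9.32 in CIE Drinking, 8.99 in Air Drinking and 9.02 in Air NonDrinking mice, and neither Comparison 1 (0.29 ± 0.13, adjusted p = 0.245) nor Comparison 4 (0.23 ± 0.13, adjusted p = 0.336) passed. In BNST the medians were 7.21 in CIE Drinking, 7.49 in Air Drinking and 7.18 in Air NonDrinking mice, with wide spread (SD 0.50, 0.62 and 0.38).

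**Figure D4:**
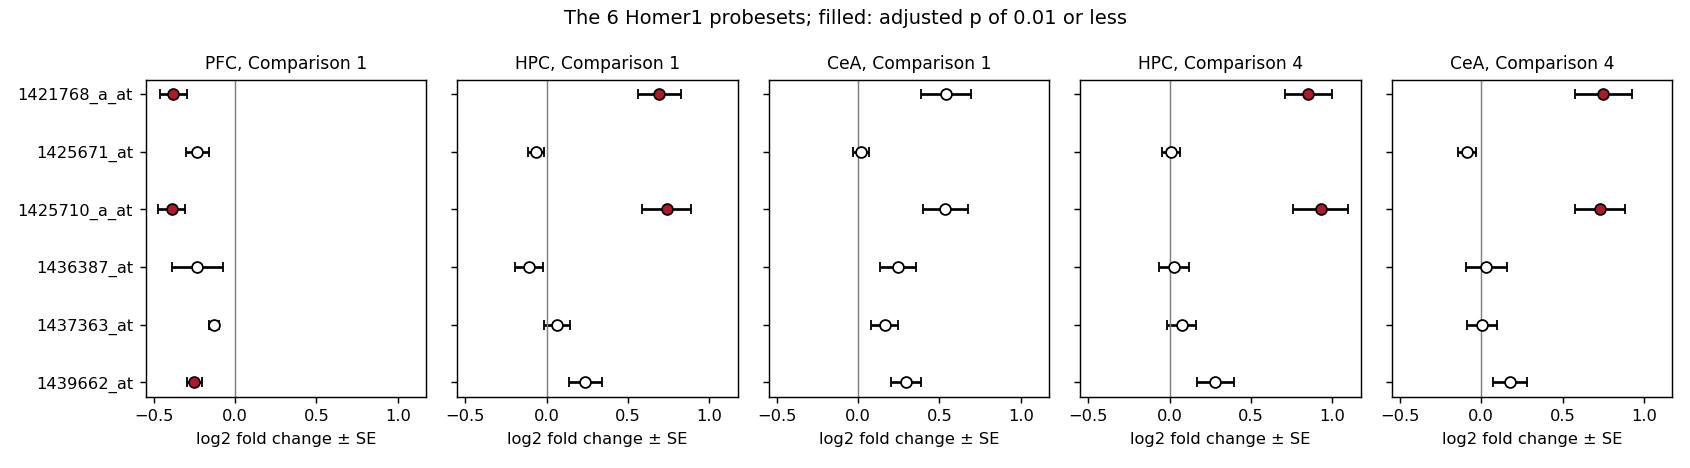
Log2 fold change (point) and SE (bar) of the 6 Homer1 probesets (rows) in PFC, HPC and CeA in Comparison 1 and in HPC and CeA in Comparison 4, filled at an adjusted p of 0.01 or less. In HPC Comparison 4, 1421768_a_at and 1425710_a_at stand at 0.85 and 0.93, and the other 4 probesets at 0.28 or less.

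The Homer1 probesets did not all move alike. In HPC Comparison 4 the bright 1437363_at had means of 11.62 in CIE Drinking and 11.54 in Air NonDrinking mice, and 1436387_at had 9.30 and 9.28. In PFC the bright probeset 1437363_at was called in other comparisons than 1425710_a_at. In Comparisons 1 and 6, where it was not called, it gave -0.13 and 0.14, in the same directions as 1425710_a_at. It ran from 12.01 to 12.27 in CIE NonDrinking mice and 11.82 to 12.14 in Air NonDrinking mice and rose by 0.19 ± 0.03 (adjusted p = 0.000667, but 0.0129 with only the 2 groups in the fit). CIE Drinking mice, at 11.86 to 12.06, lay lower than CIE NonDrinking mice by 0.18 ± 0.03 (adjusted p = 0.000625).

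The difference between probesets in their response was tested in PFC by permuting mice between groups (100000 resamples, 2-sided, 90 tests over 15 pairs and 6 comparisons, adjusted together). In Comparison 1, 5 of 15 pairs differed at an adjusted permutation p of 0.05 or less. Homer1 1425710_a_at fell more than 1437363_at by 0.26 (adjusted permutation p = 0.0045) and more than 1439662_at by 0.14 (adjusted permutation p = 0.0130), whereas 1421768_a_at and 1425710_a_at differed by 0.01 (adjusted permutation p = 0.908). Comparisons 2 and 5 gave 2 such pairs each, Comparison 4 gave 1, Comparison 6 gave 3, and Comparison 3 gave 0 (smallest adjusted permutation p 0.446). Among the 3 of Comparison 6, 1425710_a_at rose more than 1437363_at by 0.25 (adjusted permutation p = 0.0130).

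Whether the PFC response differed from that of another region was tested in a fit of all arrays. Both strong Homer1 probesets differed between PFC and HPC. For 1425710_a_at the PFC response minus that of HPC was -1.13 ± 0.21 in Comparison 1 (adjusted p = 0.000177) and -0.93 ± 0.22 in Comparison 4 (adjusted p = 0.00285). For 1421768_a_at these were -1.07 ± 0.21 (adjusted p = 0.000326) and -0.89 ± 0.22 (adjusted p = 0.00400). Against CeA in Comparison 1, 1425710_a_at gave -0.92 ± 0.21, 1421768_a_at -0.92 ± 0.21 and 1439662_at -0.54 ± 0.15 (adjusted p = 0.00153, 0.00143 and 0.00857). Grm7 1459532_at gave -0.67 ± 0.15 against NAC (adjusted p = 0.00469) and -0.60 ± 0.15 against CeA (adjusted p = 0.00400), again in Comparison 1. In Comparison 2 against CeA, Grm5 1455272_at gave 0.53 ± 0.12 (adjusted p = 0.00242) and Grm7 1443119_at 0.51 ± 0.11 (adjusted p = 0.00111).

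These are 1 of 19 members against NAC, 2 against HPC and 4 against CeA in Comparison 1, beside 0.781%, 2.17% and 4.27% of all 43893 probesets, and none against BNST, beside 2.33%. In Comparison 2 there were 2 against CeA, beside 2.55%, and none against NAC, HPC and BNST, beside 0.686%, 0.825% and 0.966%. In Comparison 4 there were 2 against HPC, beside 3.28%, and none against NAC, BNST and CeA, beside 0.182%, 0.595% and 2.24%. With the mouse number as a replicate block the same 11 results were called, with -1.13 for 1425710_a_at against HPC in Comparison 1 (adjusted p = 0.000134).

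**Figure D5:**
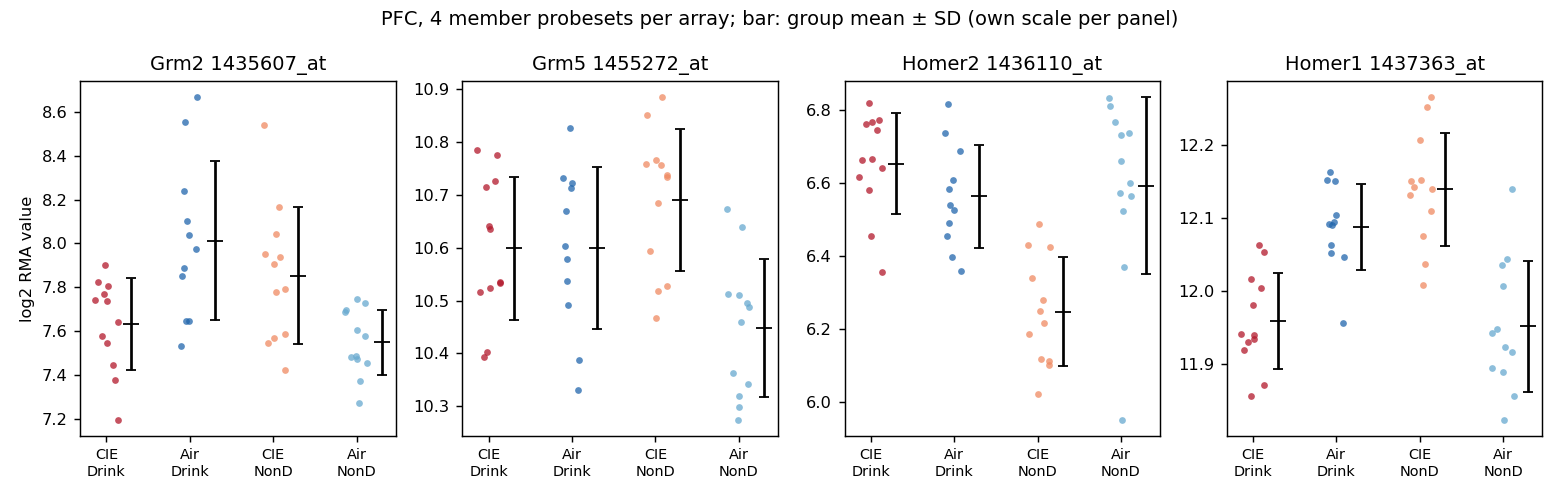
Log2 values of Grm2, Grm5 1455272_at, Homer2 1436110_at and Homer1 1437363_at on every PFC array (points) by group, with the group mean and SD as a bar and an axis of its own per panel. Homer2 1436110_at is low in CIE NonDrinking mice (median 6.23) beside the other 3 groups (medians 6.54 to 6.66). Grm2 is highest in Air Drinking mice (median 7.98), followed by CIE NonDrinking mice (median 7.85).

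Homer2, a long-form scaffold, changed in PFC through 1436110_at. This probeset ran from 6.02 to 6.49 (median 6.23) in CIE NonDrinking mice, against 5.95 to 6.83 (median 6.63) in Air NonDrinking mice. It fell by 0.35 ± 0.07 in Comparison 2 (adjusted p = 0.00234, but 0.0215 with only the 2 groups in the fit), to 0.787 of the naive level. CIE Drinking mice ran from 6.36 to 6.82 (median 6.66), higher than CIE NonDrinking mice by 0.41 ± 0.07 (adjusted p = 0.000291), and CIE NonDrinking mice lay 0.32 ± 0.07 below Air Drinking mice (adjusted p = 0.00416, lost without Air Drinking mouse 32 or 59 or CIE NonDrinking mouse 40). Its other probesets did not share this in PFC, where 1424367_a_at had means of 9.74 in CIE NonDrinking and 9.73 in Air NonDrinking mice. Of the markers, an Mbp probeset was lower in PFC Comparison 2 (-0.47 ± 0.10, adjusted p = 0.00558). In PFC Comparison 3 Gad2 (0.52 ± 0.12), Gfap 1440142_s_at (0.70 ± 0.17), Olig2 (0.36 ± 0.08) and Prox1 (0.28 ± 0.07) were higher and Gad1 (-0.37 ± 0.09) and Slc1a3 (-0.39 ± 0.09) lower, with adjusted p of 0.00322 to 0.00814, and in PFC Comparison 5 Mbp and 4 of 27 astrocyte probesets, all of Slc1a2, were lower. Their part in the Homer1 and Homer2 values was not tested. In CeA Comparison 3, 1436110_at gave 0.42 ± 0.10 (adjusted p = 0.0108), just outside the threshold.

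In NAC, Homer2 1424367_a_at showed a wide spread that the comparisons did not separate. It ran from 8.59 to 9.19 (median 8.79) in CIE Drinking mice and 8.57 to 10.78 (median 9.47) in Air Drinking mice, and Comparison 1 gave -0.66 ± 0.25 (adjusted p = 0.153). Excitatory neuron markers varied in the same arrays, with a list mean of 6.06 to 8.31 (median 6.79) in CIE Drinking mice and 6.65 to 9.24 (median 8.09) in Air Drinking mice. None of that list's 6 probesets was called, and its part in the Homer2 values was not tested. In BNST, Homer1 1436387_at had the largest difference, with means of 7.19 in CIE Drinking and 7.99 in Air Drinking mice (-0.80 ± 0.26, adjusted p = 0.0570). There the striatal marker list ran from 8.74 to 11.11 (median 9.05) in CIE Drinking mice and 8.99 to 11.18 (median 10.32) in Air Drinking mice, with 0 of 15 probesets called, and its part was not tested. Homer3 passed in no comparison of any region.

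Across vapor and drinking, the vapor response of drinkers minus that of nondrinkers (the interaction) was called for 8 of 19 members in PFC (1 higher, 7 lower), against 2.92% of all probesets. For 1437363_at of Homer1 it was -0.32 ± 0.05 (adjusted p = 3.79e-05), for 1425710_a_at -0.54 ± 0.11 (adjusted p = 0.00199) and for Grm2 -0.69 ± 0.15 (adjusted p = 0.00286). Homer2 1436110_at ran the other way, at 0.43 ± 0.10 (adjusted p = 0.00383). Markers called for the same PFC interaction were lower for 3 of 6 excitatory neuron probesets (Slc17a6 at -0.62 ± 0.15 and -0.74 ± 0.16, Nrgn at -0.23 ± 0.05) and for Gad1 (-0.55 ± 0.13, 1 of 11 inhibitory probesets). They were higher for 3 Gfap probesets (0.63 to 1.22, with Slc1a2 1459014_at lower, 4 of 27), Olig2 (0.46 ± 0.11, 1 of 7), Cnp and Mobp (0.70 ± 0.17 and 0.38 ± 0.09, with an Mbp probeset lower, 3 of 22) and the choroid plexus gene Clic6 (1.16 ± 0.21, 1 of 10), and Ppp1r1b (0.82 ± 0.21) and Prox1 (0.42 ± 0.09) were also higher and the endothelial Flt1 lower (-0.36 ± 0.09). Their adjusted p ran from 0.00047 to 0.00885, and their part in the members' values was not tested. The effects of vapor and of drinking over all PFC groups called no member, against 0.915% and 1.35% of all probesets. At an unadjusted p under 0.05 they gave 6 and 4 of 19 members, beside 8200 and 11109 of 45037 probesets. In HPC the vapor effect was called for 1425710_a_at (0.54 ± 0.12, adjusted p = 0.00451) and 1421768_a_at (0.48 ± 0.10, adjusted p = 0.00299), 2 of 19 against 1.20%. In CeA the drinking effect was called for Grm7 1459532_at (0.27 ± 0.06, adjusted p = 0.00510), 1 of 19 against 1.14%. No other such effect was called for a member, with 0.777%, 0.0444% and 0% of all probesets called for vapor, drinking and interaction in NAC, 0.0292% and 0% for drinking and interaction in HPC, 0.0698%, 0.00225% and 0% in BNST, and 0% and 0% for vapor and interaction in CeA. At an unadjusted p under 0.05, vapor, drinking and interaction gave 4, 2 and 3 of 19 members in NAC (5020, 6534 and 5210 of 45027 probesets). Drinking and interaction gave 5 and 2 in HPC (5711 and 3970 of 44463). In BNST the 3 effects gave 1, 0 and 7 (4579, 3875 and 10003 of 44429). In CeA vapor and interaction gave 7 and 8 (5637 and 4897 of 43969). The PFC interaction rests on the opposite placing of the 4 groups and uses the same arrays as Comparisons 1 and 2.

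Genes that work with these receptors were taken from a list of 55, of which 51 had 124 probesets. In PFC Comparison 1, which called 1.87% of all probesets, 1 of these 124 rose and 7 fell, and those that fell included Rgs4, which shortens Gq signalling (1448285_at, -0.68 ± 0.11, adjusted p = 0.000177), protein kinase C alpha, Prkca (1437393_at, -0.22 ± 0.04, adjusted p = 0.000131), and Gnb1, a G protein beta subunit (-0.19 ± 0.03, adjusted p = 0.000406). In PFC Comparison 6 (1.40% of all) 8 rose and none fell, among them Rgs4 1448285_at (0.60 ± 0.11, adjusted p = 0.00100), the channel gene Trpc5 (0.49 ± 0.09, adjusted p = 0.00100) and Camk2a, a postsynaptic kinase (0.55 ± 0.09, adjusted p = 0.000275). Their medians were -0.02 in Comparison 1 and 0.03 in Comparison 6, beside -0.01 and -0.01 over all probesets. In HPC Comparison 4 (3.63% of all) 10 rose and 2 fell, with a median of 0.02, beside -0.02 over all probesets. The scaffold gene Dlgap2 rose by 0.96 ± 0.16 (adjusted p = 0.000106) and Gnai1, an inhibitory G protein subunit, by 0.71 ± 0.12 (adjusted p = 0.000203). Plcb1, a phospholipase C beta, was called in both directions, with 1425600_a_at higher by 0.59 ± 0.10 (adjusted p = 0.000163) and 1425782_at lower, at -0.20 ± 0.05 (adjusted p = 0.00989). In CeA Comparison 3 (1.64% of all) 6 rose and none fell (median 0.14, beside -0.01 over all), among them Dlgap2 (0.77 ± 0.15, adjusted p = 0.00139) and 3 probesets of Camk2a (the largest 0.83 ± 0.16, adjusted p = 0.000909).

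Other activity-induced genes were set beside Homer1, as the short form is one of them. Of 18 probesets of 14 such genes, none was called in PFC Comparison 1, and 0 rose and 2 fell in Comparison 6, Btg2 (-0.72 ± 0.16, adjusted p = 0.00460) and the immediate early factor Npas4 (-0.82 ± 0.17, adjusted p = 0.00365), whereas Homer1 1425710_a_at rose there. Bdnf 1422169_a_at was lower in PFC Comparison 3 (-0.385 ± 0.0746, adjusted p = 0.00112) and for the interaction (-0.517 ± 0.107, adjusted p = 0.00165), as was Homer1 1437363_at. Btg2 was lower in PFC Comparison 2 (-0.733 ± 0.154, adjusted p = 0.00349), where 1437363_at rose. In Comparison 4 Btg2 (-0.849 ± 0.154, adjusted p = 0.0021) and Npas4 (-0.75 ± 0.168, adjusted p = 0.00851) were lower. The list's mean level was 8.10 in CIE Drinking, 8.21 in Air Drinking, 8.29 in CIE NonDrinking and 8.52 in Air NonDrinking PFC. In HPC none of these probesets was called in Comparisons 1 and 4, and the list averaged 8.17 in CIE Drinking, 8.13 in Air Drinking and 8.13 in Air NonDrinking mice. In CeA it averaged 7.70 in CIE Drinking and 7.71 in Air NonDrinking mice.

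The genes with the most similar pattern over the 20 group means, each region centred on its own mean, were sought for the brightest Homer1 probeset and the brighter Grm5 probeset. For Homer1 1437363_at they were Umad1 (Pearson's r 0.939), Cap2 (0.936), Kcnq5 (0.932), Chrm1 (0.924) and Epm2aip1 (0.922). For Grm5 1455272_at they were Abi2 (0.943), Akap11 (0.926), Fam171a1 (0.920), Zfp365 (0.919) and Lrrn3 (0.911). For Homer1 1425710_a_at, a query added after its values were seen, they were Nr2c2 (0.930), Nfyb (0.920), Abl2 (0.915), Spred2 (0.913) and Slx4ip (0.912). The 20 means share arrays and normalization within a region, and these values only describe likeness.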

How the data were processed

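RNA of 5 brain regions was measured on 1 array per region of a mouse, 224 arrays of 51 mouse numbers in the labels. The deposited log2 values were made by the authors with RMA, normalized by quantiles within each region and adjusted for hybridization batch with ComBat. The batches are not given in the sources used here, so within-batch values could not be had. No array or column was left out. Probesets without a value numbered 0 in PFC, 10 in NAC, 574 in HPC, 608 in BNST and 1068 in CeA. Gene symbols came from the platform annotation.

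Groups were compared with limma 3.58.1 (R 4.3.3), 1 mean per group, all 4 groups of a region in the fit, default empirical Bayes variances and Benjamini-Hochberg adjustment per region and comparison at 0.01. The labels number mice but do not describe litters, so p-values measure the spread between these mice. The number of arrays sets the precision. Region differences were tested for all 6 comparisons in 1 fit of all arrays over the 43893 probesets with values in every region, and members passed in Comparisons 1, 2 and 4 only. Mouse number was a random block there (duplicateCorrelation, statmod 1.5.0, consensus correlation 0.0146). In simulated data over all probesets of a region, Comparison 1 recovered 96 of 100 log2 changes of 0.5 in PFC, 94 in HPC and 79 in CeA. The member changes called in the 6 PFC comparisons were all smaller than 0.5, so these counts do not give the recovery of such changes. The simulated errors were drawn independently for each array and probeset. Alternatives were dim probesets left out (below the 50th percentile), trend and robust variances, array weights, repeated quantile normalization, only the groups compared, and leaving out each array. Named are all members, the called partner and marker genes with the smallest adjusted p (up to 4 per list, region and comparison), and the 5 genes most like a query. The members and lists were chosen with earlier results of these data known.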

Additional observations from a re-analysis of the deposited data

Results flagged for a closer look

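In HPC the Air NonDrinking mouse 48 had a Homer1 1425710_a_at value of 8.08, apart from the next highest of 7.56, in a group of 8. It was 1 of 57 tests in the 3 groups small enough for such a test, of which chance flags about 1 in 20, and the Comparison 4 call held without it.

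The PFC response differed from that of another region in 11 results. In Comparison 1 the PFC response minus that of HPC was -1.07 for Homer1 1421768_a_at and -1.13 for 1425710_a_at, and minus that of CeA it was -0.919, -0.925 and -0.543 for 1421768_a_at, 1425710_a_at and 1439662_at. For Grm7 1459532_at it was -0.668 against NAC and -0.60 against CeA. In Comparison 4 against HPC it was -0.886 for 1421768_a_at and -0.928 for 1425710_a_at. In Comparison 2 against CeA it was 0.509 for Grm7 1443119_at and 0.528 for Grm5 1455272_at.

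In PFC the vapor response of drinking mice minus that of nondrinking mice differed for 8 probesets. It was -0.688 for Grm2, -0.306 for Grm7 1443119_at and 0.435 for Homer2 1436110_at. For Homer1 it was -0.538 (1421768_a_at), -0.424 (1425671_at), -0.541 (1425710_a_at), -0.316 (1437363_at) and -0.323 (1439662_at).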

How the results depend on the processing

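No called result of a member changed direction under any alternative run, and repeating the fit with trend and robust variances ended no member's call. Direction was checked for called results only, on largely the same arrays. Counts of members called moved most often with the filter and the weights. Leaving out dim probesets drops Grm7 1459532_at, Homer1 1425671_at (and with it 1 of the 8 calls for the PFC interaction, of which 7 held) and, in HPC, Homer1 1421768_a_at. With that filter the count was 5 in PFC Comparison 6 (beside 765 of all 22519 probesets) and 0 in NAC Comparison 4 (806 of 22514). In HPC it was 1 in Comparison 1 (520 of 22232), 2 in Comparison 4 (1199) and 1 for vapor (522). In CeA it was 0 in Comparison 3 (380 of 21985) and 0 for drinking (239). Trend and robust variances gave 5 in PFC Comparison 6, beside 667 of all 45037 probesets. Array weights gave 7 in PFC Comparison 1, 2 in Comparison 5 and 5 in Comparison 6 (without Grm2), beside 3189, 1498 and 1100 of 45037 probesets. In BNST they gave 5, 1 and 3 for Comparisons 1 and 4 and interaction, beside 5029, 1346 and 3168 of 44429. In CeA they gave 2 in Comparison 3 and 0 for drinking, beside 861 and 360 of 43969. The main fit called 840 of all probesets in PFC Comparison 1 and 419 in BNST Comparison 1. Repeated quantile normalization gave 1 in PFC Comparison 6, beside 603 of 45037 probesets. This was 1425710_a_at, while Grm2 and 1421768_a_at each had an adjusted p of 0.0147. When a fit held only the groups being compared, and so fewer arrays, the count was 0 in PFC Comparison 2 (which ends the calls of Grm5 1455272_at, Homer1 1437363_at and Homer2 1436110_at), 0 in HPC Comparison 1, 1 in HPC Comparison 3 and 4 in CeA Comparison 3. Over all probesets these fits called 71 of 45037, 0 and 704 of 44463, and 843 of 43969. With each gene's probesets averaged, 0 genes were called in PFC Comparisons 2 and 3, NAC Comparison 4, HPC Comparisons 1 and 4, and CeA Comparisons 3 and 4. Other causes were not tested.

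With weights the call of Homer1 1421768_a_at in CeA Comparison 4 had an adjusted p of 0.0122. Leaving out single arrays ended the call of Homer1 1421768_a_at in PFC Comparison 6 in 15 of 47 cases (up to 0.0218, without Air Drinking mouse 59), of Homer1 1425671_at for the PFC interaction in 9 (up to 0.0115, the same mouse), of Grm7 1459532_at in HPC in 6 and for CeA drinking in 2 (up to 0.0179 and 0.0140, without Air NonDrinking mouse 55), and of 1425710_a_at for HPC vapor in 1 (0.0101, the same mouse), and reversed none. The mouse number as a replicate block applied only to region differences, paired the regions of a mouse, and changed none of the 11 calls. Within a region no paired analysis was possible because groups share no mice.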
